A study of Arabidopsis thaliana with 8 samples.

Results

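The 9 loci described here, MIR165a, MIR165b and MIR166a to MIR166g of Arabidopsis thaliana, are the rows of the deposited table with those gene identifiers, and all 9 were found among its 32420 genes. The table gives small RNAs of 21 and of 22 nt per gene as the authors' group means for 3 genotypes. Col is the wild type, es3 is the double mutant ein5-1 ski2-3, and es3dd combines ein5-1 and ski2-3 with dcl4-2 and dcl2-1, so that es3 and es3dd share the loss of EIN5, a cytoplasmic 5′-3′ exoribonuclease, and of SKI2, a helicase that feeds the exosome. es3dd additionally lacks DCL4 and DCL2, the Dicer enzymes that make siRNAs of 21 and 22 nt. The RNA came from the aerial parts of untreated plants 20 days old, 6 of them on MS medium and the last 14 on soil. There were 4 labelled libraries of es3 and 4 of es3dd, which the design text calls biological replicates. Single libraries of Col were not analysed here, so its values are the authors' means and comparisons, with no error or n.

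The unit is the authors' TPM, reads per gene scaled by a factor for each library and size class, with no division by length. Levels of different loci are therefore compared as reads per locus. The total behind that factor is not given in the sources used here. Where the group mean allowed it, the whole reads of each library were solved from the mean, and 1 TPM then stood for between 1.04 and 1.44 reads of a library. Libraries are numbered 1 to 4 within a genotype and a size class by the size of that step. The numbers are not replicate numbers, and library 1 at 21 nt need not be library 1 at 22 nt. Small RNA reads do not measure the mRNAs of the mutated genes or of tissue markers. Of the 4 leaf genes examined, RBCS1A, RBCS3B, LHCB1.3 and RCA, all had fewer 22 nt reads in es3 (means of 71.2 to 373 TPM) than in es3dd (147 to 498 TPM) or Col (534 to 885 TPM). At 21 nt, LHCB1.3 (861 against 509 TPM) and RBCS1A (245 against 198 TPM) had more in es3 than in es3dd, and RBCS3B and RCA had fewer. The root gene PYK10 had means of 3.06 to 6.98 TPM, highest in es3 in both size classes, and the root hair regulator RHD6 was listed at 0 in all columns but es3 at 22 nt, where it was 0.19 TPM.

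miR165 and miR166 are cut by DCL1 from hairpin precursors and guide AGO1 to the mRNAs of the HD-ZIP III transcription factors, which set the upper side of leaves, the meristem and the vasculature. AGO10 binds the same microRNAs and keeps them from AGO1 in the shoot apex. DCL1 is intact by label in all 3 genotypes. Plant microRNAs of 21 nt are the usual product, and forms 1 base longer are made when the cut is shifted or a base is added to the end.

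The mature sequences decide which loci can be told apart, so they are shown before the values. RefSeq annotates 1 mature strand from the 3′ arm at each locus, and the seed, bases 2 to 8 from the 5′ end, is in capitals.
miR165-3p (MIR165a and MIR165b): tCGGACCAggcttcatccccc
miR166-3p (MIR166a to MIR166g): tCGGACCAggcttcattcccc
The seed was the same at all 9 loci. The 2 sequences differed by 1 base, T17C from miR166 to miR165, counted from 1 at the 5′ end. The miR165 sequence matched the TAIR10.1 genome at 2 places and the miR166 sequence at 7, all inside the annotated loci, with 0 matches elsewhere. A 21 nt read of miR166 therefore cannot be assigned to one of its 7 loci.

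The base that follows the mature strand in the genome splits the loci a second way. In the 22 nt sequences that the genome encodes, this last base is in capitals.
miR166 with 22nd base from MIR166a, MIR166b, MIR166c and MIR166d: tcggaccaggcttcattccccC
miR166 with 22nd base from MIR166e, MIR166f and MIR166g: tcggaccaggcttcattccccT
miR165 with 22nd base from MIR165a: tcggaccaggcttcatcccccC
miR165 with 22nd base from MIR165b: tcggaccaggcttcatcccccT
The first of these matched the genome at 4 places, the second at 3, and each miR165 form at 1. At 22 nt, MIR165a and MIR165b shared no sequence at all, whereas at 21 nt the mature strand was their single shared one.

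The 5′ arm also carries an annotated strand at 4 loci, and it is shown because it marks loci that the 3′ strand cannot separate. Its seed is in capitals.
miR166-5p (MIR166a and MIR166b): gGACTGTTgtctggctcgagg
miR165a-5p (MIR165a): gGAATGTTgtctggatcgagg
miR166e-5p (MIR166e): gGAATGTTgtctggcacgagg
The strand of MIR166a and MIR166b matched the genome at those 2 loci, and the other two matched it at 1 locus each.

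In TAIR10.1, the build of the RefSeq annotation, MIR165a (AT1G01183) lies at chr1:78927-79037 on the minus strand, inside the span of the noncoding gene AT1G08765, and its mature strand at chr1:78932-78952. MIR165b (AT4G00885) lies at chr4:369831-370012 on the minus strand. MIR166a (AT2G46685) is at chr2:19176108-19176277 and MIR166b (AT3G61897) at chr3:22922206-22922325, both on the plus strand. The other 5 loci are on chromosome 5. MIR166c (AT5G08712) at chr5:2838635-2838773 and MIR166d (AT5G08717) at chr5:2840622-2840734 are neighbours on the plus strand, 1848 bases apart. MIR166e (AT5G41905) is at chr5:16775520-16775662 on the minus strand, MIR166f (AT5G43603) at chr5:17516301-17516405 and MIR166g (AT5G63715) at chr5:25504798-25504919 on the plus strand. AT1G08765 was the only other annotated gene that overlapped one of the 9 loci, and it was not analysed here. How a read that matches several loci was counted is not given in the sources used here.

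At 21 nt, every one of the 9 loci had its lowest mean in es3 and its highest in es3dd. MIR165a, the most abundant, had means of 11572 TPM in Col, 3678 in es3 and 17777 in es3dd. MIR165b had means of 9956, 3125 and 13541 TPM. MIR166a followed with 6008 TPM in Col, 2364 in es3 and 12857 in es3dd. The partner that shares its 5′ strand, MIR166b, was close to it, at 5540, 2175 and 12267 TPM. MIR166e had 6428, 2516 and 8923 TPM. It stood above MIR166a in Col and es3 and below it in es3dd. The remaining 4 loci, MIR166c, MIR166d, MIR166f and MIR166g, had nearly equal means. They ran from 4387 to 4497 TPM in Col, from 1621 to 1651 in es3 and from 5905 to 5939 in es3dd, a range of 2.46%, 1.86% and 0.568% of their mean. Together, the 9 loci held 9.42% of the summed 21 nt signal of the table in Col, against 3.88% in es3 and 11.8% in es3dd, with reads at shared sequences counted as the authors counted them. In RNA from whole aerial parts, fewer cells of a type and less RNA per cell cannot be told apart.

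**Figure D1:**
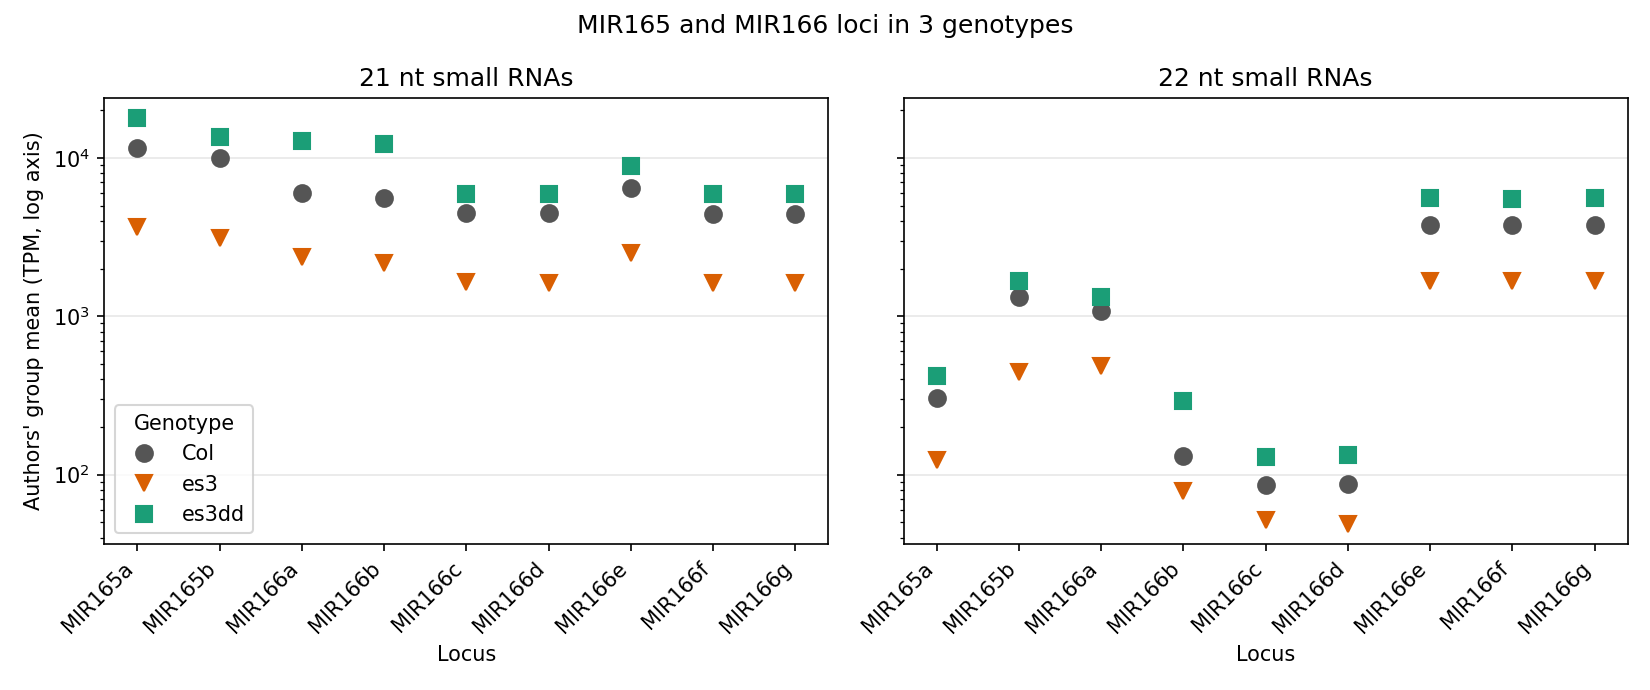
Authors' group means (TPM, log axis) of the 9 loci in Col, es3 and es3dd, at 21 nt on the left and 22 nt on the right; the deposited means carry no error bars. Every locus is lowest in es3 and highest in es3dd, and MIR166e, MIR166f and MIR166g alone have 22 nt means of at least 58.5% of their 21 nt means.

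The loci were lower in es3 than in es3dd in the authors' deposited table, whose call was taken here as an adjusted p below 0.05 with an absolute log2 fold of at least 1. At 21 nt, 9 of 9 loci were called lower, where 6.61% of the 19089 genes tested were called in that direction. The 21 nt miR166 sequence is shared by 7 of these loci and that of miR165 by 2. The 9 calls are therefore not independent, and the same limit holds for every count and median of the loci given below. The authors' log2 fold of es3 over es3dd was -2.44 for MIR166a (authors' adjusted p = 3.11e-23) and -2.496 for MIR166b (2.33e-23) in the authors' deposited table. It was -2.27 for MIR165a (9.22e-07) and -2.12 for MIR165b (0.00677) in the same authors' deposited table. For the other 5 loci the authors' deposited table gave between -1.83 and -1.87. The median of the 9 loci was -1.87, against -1.96 for the 129 other MIR loci tested and 1.34 for all genes tested in the authors' deposited table. Of those other MIR loci, 100 were called lower and 2 higher.

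Against Col, the authors' deposited table called 8 of the 9 loci lower in es3 at 21 nt, where 3.89% of the 18061 genes tested were called lower. The exception was MIR165b, with a log2 fold of -1.67 at an adjusted p of 0.0517 in the authors' deposited table. The log2 folds of the 8 others ran from -1.35 for MIR166a to -1.65 for MIR165a in the authors' deposited table. The adjusted p in that authors' deposited table was 2.48e-07 for MIR166a and 4.07e-07 for MIR166b, but between 0.0275 and 0.0446 for MIR166c to MIR166g. The median of the 9 was -1.45, against -0.65 for the 127 other MIR loci tested, of which 41 were called lower and 10 higher in the authors' deposited table. Both comparisons use the same es3 libraries. The table holds no test of es3dd against Col. As ratios of the authors' means at 21 nt, es3dd stood at 2.14 times Col for MIR166a and 2.21 times for MIR166b. The 7 other loci stood between 1.32 and 1.54 times Col. MIR166a and MIR166b were therefore at 1.35 and 1.25 times the mean of MIR166f in Col, 1.46 and 1.34 times in es3, and 2.17 and 2.08 times in es3dd.

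At 22 nt the loci fell into levels that followed the base after the mature strand in part. MIR166e, MIR166f and MIR166g, with T in that place, had means between 3756 and 3781 TPM in Col, between 1663 and 1674 in es3 and between 5531 and 5568 in es3dd. MIR165b, also with T, had 1313, 442 and 1660 TPM. Of the loci with C, MIR165a had 306, 123 and 421 TPM and MIR166b 130, 79.2 and 290 TPM. MIR166c and MIR166d were lowest, at 86.4 and 87.5 TPM in Col, 51.4 and 49.1 in es3, and 128 and 132 in es3dd. MIR166a did not follow the base. It carries C and the same 22 nt sequence as MIR166b, MIR166c and MIR166d, but stood at 1079, 482 and 1319 TPM, near MIR165b.

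The balance of the size classes separated the same loci, but it sets unlike pools of reads against each other. The 21 nt miR166 sequence belongs to 7 loci, and its 22 nt form ending in T to 3, MIR166e, MIR166f and MIR166g. A 21 nt miR166 from any of the 7 loci with a T added at its end would match the same 3, which was not tested. The percentages at MIR166 loci are therefore not measures of single loci. The 22 nt mean was between 84.7% and 103% of the 21 nt mean at MIR166f and MIR166g over the 3 genotypes, each class on its own scale. In es3, where the percentage was highest, the solved reads of MIR166f averaged 1901.2 per library at 22 nt and 2175.2 at 21 nt. The percentages are therefore not ratios of reads. At MIR166e it was between 58.5% and 66.3%. At MIR165b it was between 12.3% and 14.2%, and at MIR166a it was 17.95% in Col, 20.4% in es3 and 10.3% in es3dd. It lay between 1.92% and 3.64% at MIR165a, MIR166b, MIR166c and MIR166d. MIR166e differed from MIR166f by 1992, 895 and 3010 TPM at 21 nt, in the order Col, es3, es3dd, but by 1.51, 4.46 and 7.73 TPM at 22 nt.

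In the authors' deposited table, 9 of 9 loci were also called lower in es3 than in es3dd at 22 nt, where 3.78% of the 14139 genes tested were called lower. Sequences are shared here too, among MIR166a to MIR166d and among MIR166e to MIR166g, so the calls are not independent. The log2 folds ran from -1.32 at MIR166c to -1.91 at MIR165b, with a median of -1.73, against -1.52 for the 104 other MIR loci and 0.34 for all genes tested in the authors' deposited table. Among those 104 loci, 57 were called lower and 1 higher in the authors' deposited table. Against Col, 3 of 9 loci were called lower in es3 at 22 nt, where 3.96% of 14640 genes were. Among 104 other MIR loci tested against Col there, 16 were called lower and 9 higher in the authors' deposited table. At an adjusted p below 0.05 with no limit on size, the loci called lower were 9 of 9 against es3dd at 21 nt (9.08% of genes) and at 22 nt (5.72%), 8 of 9 against Col at 21 nt (4.88%) and 4 of 9 at 22 nt (4.75%) in the authors' deposited table. The 3 loci called against Col at 22 nt were MIR165a (log2 fold -1.32), MIR165b (-1.57) and MIR166a (-1.16) in the authors' deposited table. MIR166b had a log2 fold of -0.72 at an adjusted p of 7.76e-05, under the limit on size, in the authors' deposited table. MIR166e, MIR166f and MIR166g had log2 folds between -1.17 and -1.18 at an adjusted p of 0.131 in the authors' deposited table. MIR166c and MIR166d had -0.75 and -0.84, at 0.305 and 0.177, in the authors' deposited table.

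The group means at 22 nt could be taken apart into single libraries for most loci, which shows the spread that the means hide. MIR165a had 88.7, 135, 107 and 162 TPM in the 4 libraries of es3 and 322, 464, 391 and 508 TPM in those of es3dd. MIR166a had 451, 505, 413 and 561 TPM in es3 and 1087, 1289, 1185 and 1717 TPM in es3dd. MIR166b had 68.2, 98.3, 61.2 and 88.9 TPM in es3 and 233, 266, 314 and 345 TPM in es3dd. At these 3 loci, all 4 libraries of es3dd lay above all 4 of es3, an order that 6.89% of the 14668 genes tested at 22 nt showed.

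The neighbours MIR166c and MIR166d behaved alike and less evenly. MIR166c had 31.8, 63.6, 47.9 and 62.4 TPM in es3 and 33.8, 152, 126 and 201 TPM in es3dd. MIR166d had 34.1, 56.8, 49.7 and 55.8 TPM in es3 and 41.0, 138, 135 and 213 TPM in es3dd. Library 1 of es3dd lay within the range of es3 at both loci, and the 3 other libraries of es3dd lay above it. MIR165b had 186, 529, 373 and 681 TPM in es3. Its es3dd mean had 2 whole-read solutions. The one with the smaller spread gave 320, 2166, 1798 and 2355 TPM, with library 1 the lowest and 7.35-fold between lowest and highest. The other gave 1299, 319.6, 3608 and 1413 TPM, with library 2 the lowest and 11.3-fold. MIR166e, MIR166f and MIR166g could be solved in es3 only, as a joint solution. In this solution MIR166f had 923, 1956, 1298 and 2475 TPM. MIR166e, MIR166f and MIR166g each had several solutions alone. The joint one was kept for limited differences between loci and a limited spread between libraries. That MIR166e and MIR166g followed MIR166f library by library was therefore a condition of the solution and not an observation. At 21 nt the only libraries solved were those of MIR166c, MIR166d, MIR166f and MIR166g in es3, again jointly, where MIR166c had 1992, 1008, 2225 and 1381 TPM.

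**Figure D2:**
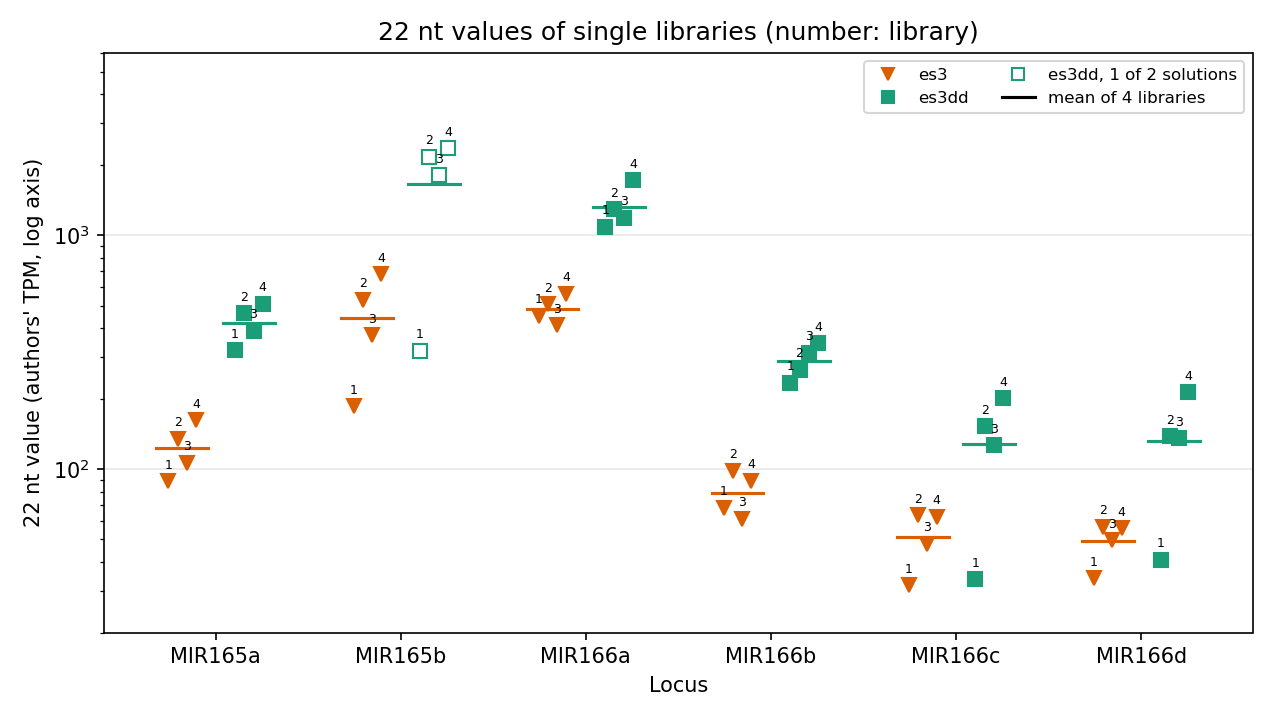
22 nt values (authors' TPM, log axis) of 6 loci in the 4 libraries of es3 and of es3dd, numbered 1 to 4, with the mean as a line; open symbols mark MIR165b in es3dd, 1 of 2 solutions of its mean. The genotypes separate at MIR165a, MIR166a and MIR166b, while library 1 of es3dd lies near the es3 values at MIR166c and MIR166d, and at MIR165b in the solution drawn.

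With their errors, the levels at 22 nt in es3 ordered as MIR166g (1674 ± 692 TPM, SD, n = 4), MIR166e (1667 ± 689) and MIR166f (1663 ± 689), then MIR166a (482 ± 64.6) and MIR165b (442 ± 212), then MIR165a (123 ± 32.1), MIR166b (79.2 ± 17.3), MIR166c (51.4 ± 14.9) and MIR166d (49.1 ± 10.5). By mean ± SD, MIR166e, MIR166f and MIR166g overlapped, as did the neighbours MIR166a and MIR165b, MIR165a and MIR166b, MIR166b and MIR166c, and MIR166c and MIR166d. Within single libraries, MIR165a nevertheless stood above MIR166b in each of the 8 libraries, by 1.25 to 1.82 times. In es3dd the levels of the 5 loci with 1 solution were 1319 ± 278 TPM for MIR166a, 421 ± 81.9 for MIR165a, 290 ± 49.5 for MIR166b, 132 ± 70.6 for MIR166d and 128 ± 70.2 for MIR166c (SD, n = 4).

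The library values were tested with limma on log2(TPM + 1) across all 14668 genes with a mean of at least 1. All 5 loci with 1 solution in both genotypes were called lower in es3 than in es3dd (at the same limits on adjusted p and size), where 4.32% of genes were called lower and 15.1% higher. Of the 99 other MIR loci in the same fit, 58 were called lower and 2 higher, with a median log2 difference of -1.30. The log2 difference was -1.78 ± 0.11 (SE) at MIR165a (limma adjusted p = 2.31e-23), -1.44 ± 0.07 at MIR166a (3.02e-29) and -1.87 ± 0.12 at MIR166b (7.04e-23), each lower in 4 of 4 libraries. It was -1.10 ± 0.23 at MIR166c (limma adjusted p = 0.000108) and -1.22 ± 0.21 at MIR166d (3.21e-06). These SEs lean on the spread of all genes, and the SE from the 8 values of the locus alone was 0.61 at MIR166c and 0.53 at MIR166d, against 0.17 to 0.24 at the 3 other loci. An exact two-sided permutation test over the 8 libraries gave p = 0.0286, the smallest that 4 against 4 allows, at MIR165a, MIR166a and MIR166b, and p = 0.114 at MIR166c and MIR166d. With a prior spread robust to outlying genes in limma, MIR166c (adjusted p = 0.251) and MIR166d (0.154) were no longer called, while MIR165a (0.00181), MIR166a (0.00113) and MIR166b (7.31e-21) were. Without library 1 of es3dd, the limma differences were -1.64 at MIR166c and -1.70 at MIR166d. Without library 4 of es3dd they were -0.80 and -0.92, under the limit on size, and MIR166c was also under it without library 1 of es3 (-0.89) or library 2 of es3dd (-0.93). In the smaller-spread solution only, which need not be the true one, MIR165b differed by -1.72 ± 0.25 (limma adjusted p = 5.44e-08), and by -2.39 without library 1 of es3dd.

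The size of these differences depended on what a library was scaled to. The summed 22 nt reads of the 162 other MIR loci solved in both genotypes were 2.69 times higher in es3dd than in es3, and those of 84 plastid-encoded genes 2.83 times higher. Relative to the 162 solved MIR loci only, the limma log2 difference was -0.36 ± 0.12 at MIR165a (adjusted p = 0.0115), -0.01 ± 0.08 at MIR166a (0.895), -0.45 ± 0.13 at MIR166b (0.00269), 0.31 ± 0.27 at MIR166c (0.302) and 0.19 ± 0.24 at MIR166d (0.492). Relative to plastid-encoded genes it was -0.29 at MIR165a, 0.06 at MIR166a, -0.38 at MIR166b, 0.38 at MIR166c and 0.26 at MIR166d. With these 2 scalings 0 of 5 loci were called, and the direction turned at MIR166c and MIR166d with both and at MIR166a with the plastid genes. Centring on the median log2 value left 5 of 5 called, from -1.53 at MIR166c to -2.30 at MIR166b. The median log2 difference of all genes was 0.30 at the authors' scaling, 1.29 relative to other MIR loci and 1.34 relative to plastid genes. Set against that median, the loci lay between -0.96 (MIR166c, plastid genes) and -2.16 (MIR166b, authors' scaling and median centring) over the 4 scalings. Taking off the median removes the scaling itself, apart from the effect of the added 1 on low values. The 4 scalings are therefore not separate checks of this value. Fewer microRNA molecules per plant and a larger share of other small RNAs in the library cannot be told apart in these values.

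**Figure D3:**
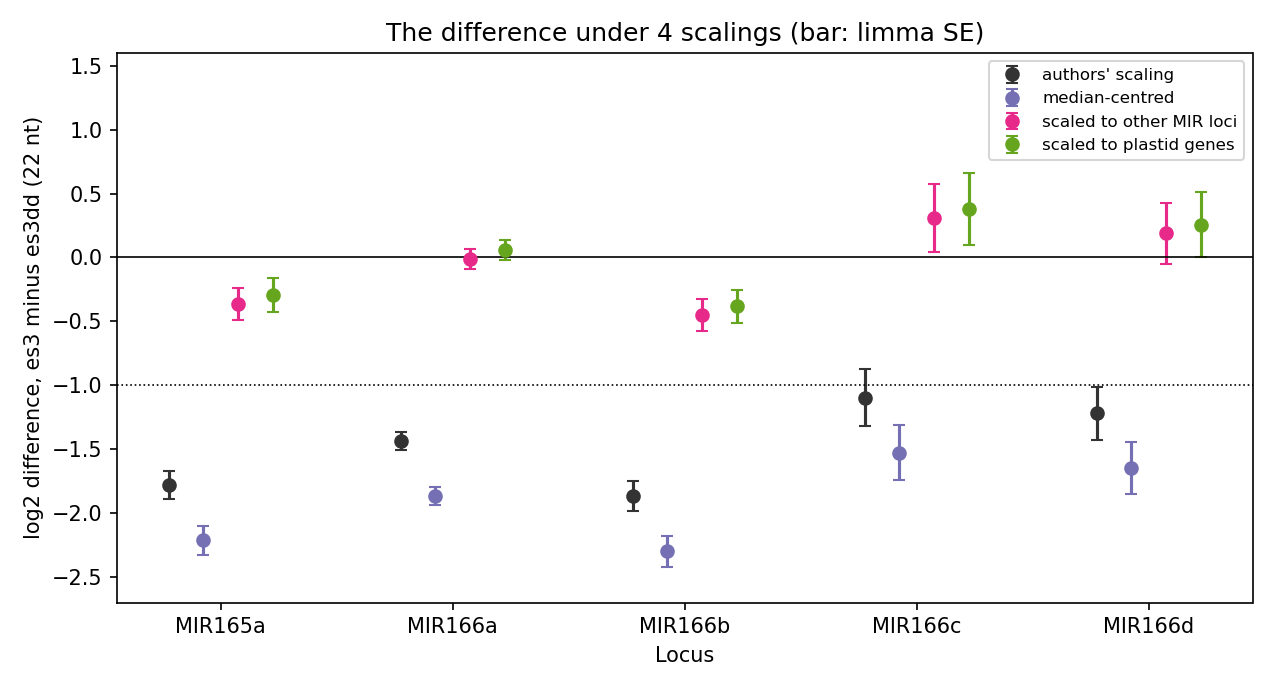
log2 difference of es3 minus es3dd at 22 nt (points, with the limma SE as bars) for 5 loci under 4 scalings of the libraries; the dotted line is the limit of the call. At the authors' scaling the loci lie between -1.10 and -1.87, and relative to the solved other MIR loci between -0.45 and 0.31.

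Ratios between 2 loci within a library do not depend on that scaling. MIR166a over MIR166b was 6.61, 5.14, 6.74 and 6.31 in the libraries of es3 and 4.66, 4.84, 3.77 and 4.98 in those of es3dd, with no overlap. MIR165a over MIR166a was 0.197, 0.267, 0.258 and 0.288 in es3 and 0.296, 0.360, 0.330 and 0.296 in es3dd, also with no overlap. The remaining 8 of the 10 pairs overlapped. Such separation was less frequent among these loci, 2 of 10 pairs, than among pairs of the 32 other MIR loci with a mean of at least 20 TPM, of which 58.1% (288 of 496 pairs) did not overlap, and the difference was not tested. MIR166c over MIR166d stayed between 0.824 and 1.12 in all 8 libraries, including library 1 of es3dd. MIR166b over MIR166c was 6.90 in that library and between 1.72 and 2.48 in the 3 others of es3dd. Libraries more than 2.5-fold apart were rare among all genes at this depth, but not among MIR loci. Of 146 genes solved with at least 500 reads over the 4 libraries of es3dd at 22 nt, 4 had them, namely MIR166c (5.95-fold), MIR166d (5.20), MIR319a (2.96) and MIR319b (2.62). All 4 were among the 20 MIR loci of that set, which leaves out MIR165b for its 2 solutions. In es3 at 22 nt, 3 of 197 such genes had them, all among 20 MIR loci, with MIR319c at 10.3-fold and MIR165b at 3.67-fold.

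The reads of loci with a shared sequence differed between size classes in how close they were. At 21 nt in es3, MIR166c, MIR166d, MIR166f and MIR166g differed from each other by up to 125 reads in a library, where the loci averaged between 2173 and 2212.5 reads, and the root mean square difference of a pair was between 56.8 and 78.5 reads. Independent Poisson counts of that size, taken from the group mean, would differ with an SD of about 66 reads. At 22 nt in es3, MIR166e, MIR166f and MIR166g averaged between 1901.2 and 1913.8 reads, yet differed by 3 to 22 reads in a library, where independent counts would differ with an SD of 62.2. MIR166e exceeded MIR166f by 5, 8, 5 and 3 reads in the 4 libraries of es3, and by 11, 10, 6 and 9 reads in those of es3dd at an estimated 6411 reads. In es3dd at 21 nt, where only the differences could be solved, the root mean square difference of the 5 solved pairs was between 32.9 and 151 reads, with an SD of 113 for independent counts. At 22 nt the counts of the 3 loci were closer than independent counts, and at 21 nt in es3 those of the 4 loci were about as far apart as such counts. Differences over 300 reads were not searched. The way the counting treated shared reads was not tested.

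**Figure D4:**
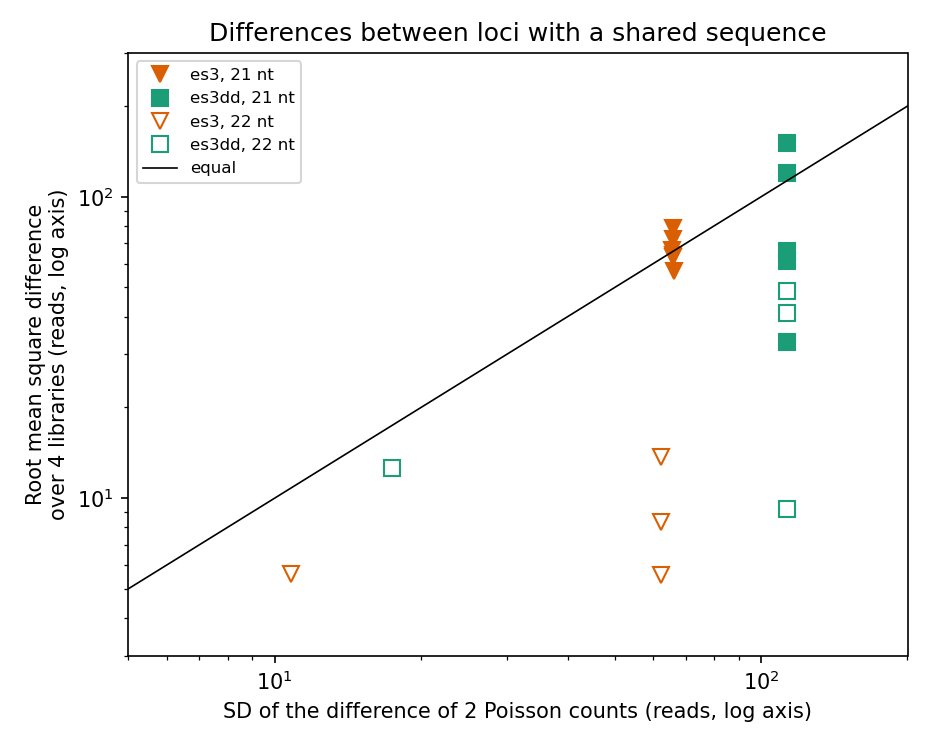
Root mean square difference in reads over 4 libraries between pairs of loci with a shared mature sequence, against the SD expected for 2 independent Poisson counts (both log axes, reads); the line marks equality. The 21 nt pairs of es3 lie around the line, and the 22 nt pairs of MIR166e, MIR166f and MIR166g lie below it.

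Among 240 other genes with a mean of at least 100 TPM over the 6 mean columns, the 5 whose pattern was most like that of MIR166a were ATCG00430, MIR162b, MIR319a, MIR163 and MIR158a. Likeness was the root mean square difference of log2(TPM + 1) over 6 columns, each gene centred on its own mean, and it was 0.321 for ATCG00430 and between 0.407 and 0.655 for the 4 MIR loci. MIR165b, at 0.266, was closer to MIR166a than any of them, while the 7 other loci lay between 1.03 and 1.38. The 6 columns span both size classes, so the measure takes in the balance of 22 to 21 nt as well as the genotype pattern. MIR166b, at 1.28, had the same ratio of es3 to Col as MIR166a at 21 nt (0.393 for both), but not at 22 nt (0.608 against 0.447). MIR162b had 21 nt means of 29921 TPM in Col, 10534 in es3 and 45700 in es3dd. These values describe 6 columns and carry no test.

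The targets of miR165 and miR166 went the other way in the same columns. All 5 HD-ZIP III genes had more 21 nt small RNA reads in es3 than in es3dd in the authors' deposited table, where 32.3% of genes were called higher, with log2 folds from 6.66 for PHV to 8.68 for ATHB8. REV had a mean of 538 TPM at 21 nt in es3, 3.40 in Col and 2.35 in es3dd.

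Of 16 further genes of the pathway, 15 were analysed here, and 10 were tested for es3 over es3dd at 21 nt in the authors' deposited table. There, 8 were higher in es3 and 0 lower, where 32.3% of genes were called higher, with a median log2 fold of 4.31 against 1.34 for all genes tested. HYL1, HEN1, HST, ZPR2 and ZPR3, with at most 1.12 TPM in es3, were not tested. ZPR1, KAN1 and KAN2 had few reads outside es3 and were tested. SDN1 was also tested, with 0.538 TPM in es3 and 1.715 in Col. Whether a gene was tested was thus tied to its level in the genotypes, which for ZPR1, KAN1 and KAN2 was mainly that in es3. The counts given here for the pathway carry no weight of their own. AGO1, the effector of the microRNAs, had 21 nt means of 47.1 TPM in Col, 252 in es3 and 14.8 in es3dd. DCL1, which cuts their precursors, had 30.2, 74.1 and 3.23 TPM. The small RNAs on AGO10, which sequesters miR165 and miR166, were few, at 2.65, 8.26 and 0.94 TPM, and higher in es3 than es3dd with a log2 fold of 3.16 (adjusted p = 0.000733) in the authors' deposited table. SHR and SCR, which in the root switch on miR165 and miR166 transcription, had 93.7 and 51.4 TPM in es3 and 2.499 and 1.17 in es3dd. ZPR1, a small leucine zipper protein that binds HD-ZIP III proteins, rose to 11.1 TPM in es3 from 0.454 in es3dd, and the abaxial regulators KAN1 and KAN2 to 6.12 and 6.59 TPM from 0.915 and 0. The 2 genes tested and not called were SE, which helps DCL1, and SDN1, which degrades microRNAs. At 22 nt, 4 of 7 tested were higher and 0 lower, where 10.9% of genes were called higher. Over Col, the authors' deposited table called 7 of 9 higher at 21 nt, where 21.2% of genes were, and 3 of 7 at 22 nt, where 7.85% were. These are small RNA reads on the genes and not their mRNA levels.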

How the data were processed

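Small RNA libraries were made with the miRNeasy and NEBNext small RNA kits and read as single-end 50-bp reads, per the labels' protocols. Bowtie 1.2.2, SAMtools 1.9, DESeq2 and the build TAIR10 appear, without their roles, in the submitters' processing notes. The deposited table holds the authors' TPM means, their log2 fold changes and their p-values with adjusted p-values. Other per-sample columns not used numbered 0. Each es3 and es3dd mean was treated as the average of 4 whole-read values, written with 15 significant digits. All whole-read solutions were listed, and a mean was used where 1 existed. In es3 and es3dd at 22 nt, 23795 of 23802 and 21868 of 21869 means tried had 1 solution. Loci with a shared sequence were solved jointly, allowing up to 300 reads between them and 10-fold between libraries. These limits and the rounding tolerance were settled after solutions had been seen. The recovery of single means was tried on simulated means, with 95% to 100% recovered and 0 wrong. The joint solutions, their limits and the differences between loci were not simulated. In simulated reads for the fit, all 200 genes changed 4-fold were called in the right direction, and 9 unchanged genes were called. That simulation used the same spread for all genes and does not cover loci as uneven as MIR166c and MIR166d. Library values at 22 nt were fitted with limma 3.58.1 in R 4.3.3 (trend, log2(TPM + 1), genes with a mean of at least 1, Benjamini-Hochberg). The designed 21 nt fit was not used, since no locus was solved in both genotypes. The study's notes name count-based tools, but no count table was used here. Sequences and positions come from RefSeq on TAIR10.1. All 9 loci are described, and the likeness rule names 5 further genes. The loci, gene lists and rules were chosen with earlier results of these data known.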

Additional observations from a re-analysis of the deposited data

How the results depend on the processing

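Of the 5 loci in the 22 nt fit, all were called lower in es3 with a pseudocount of 0.5 or 5, without a filter beyond a read in 1 library, with a mean of at least 10, after median centring and with voom weights. Leaving out each library in turn gave between 3 and 5 called loci. MIR166c lost its call without es3 library 1 (-0.89), es3dd library 2 (-0.93) or es3dd library 4 (-0.80), and MIR166d without es3dd library 4 (-0.92). MIR165a, MIR166a and MIR166b stayed called there, between -1.30 and -1.98. Scaled to the solved other MIR loci or to plastid-encoded genes, 0 loci were called. MIR166c and MIR166d then turned to 0.310 and 0.189, and to 0.379 and 0.258, and MIR166a to 0.059 with the plastid genes. With the robust prior, added after seeing the data, 3 loci were called. Over all genes, 2212 were higher and 634 lower. The counts were 886 and 239 with a pseudocount of 5, 494 and 296 with a mean of at least 10, 1237 and 1606 after median centring, 8841 and 56 scaled to plastid genes, and 8488 and 66 scaled to other MIR loci. Leaving out libraries gave 1851 to 2013 higher and 550 to 614 lower. In the authors' deposited table at an adjusted p below 0.05 alone, 809 genes in place of 534 were lower in es3 than es3dd at 22 nt, and 4 loci in place of 3 were lower than in Col. No paired analysis was possible because libraries solved from means have no link to the labelled replicates. The planned edgeR and DESeq2 fits on the recovered reads were not run, and limma with voom weights was used on those reads instead. The 21 nt alternatives were not run either. Means above the reach of the recovery have no spread here, which covers all 9 loci in es3dd at 21 nt and MIR166e, MIR166f and MIR166g in es3dd at 22 nt. In es3 at 21 nt, MIR165a, MIR165b, MIR166a, MIR166b and MIR166e have none because each mean had several solutions.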
